A study of Saccharomyces cerevisiae with 8 samples.

Results

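Evolved strain 3 was compared with evolved strain 2, a pair of yeast isolates (Saccharomyces cerevisiae) taken from cultures that had been kept growing on glucose. The 4 arrays titled with these strains, 2 per strain, were used out of 8 in all. The other 4 arrays held evolved strain 1 and the parental strain, named BY4742 in the growth protocol. All 3 evolved strains share the same history of approximately 450 generations on 2% glucose. They were kept in CM broth, which also held 0.5% ammonium sulfate, as aerated 100 ml cultures at 30 °C, and 10 µl was passed to fresh medium each day. The parental arrays are labelled with the same glucose, ammonium sulfate, temperature, culture volume and transfer, but with no number of generations. No strain received another agent. Each evolved strain is an individual isolate, so a difference between strains 3 and 2 is a difference between 1 clone and another. Total RNA was labelled as biotinylated cRNA and read on Affymetrix 3′ arrays, and levels are given as log2 of the deposited intensity. Of 10928 probe sets, 5498 were listed with 1 S. cerevisiae gene, and these stood for 5449 genes, all of which were tested. The arrays of a strain are titled biological replicates. Nothing in the labels states that their cultures were separate, and each p-value then reflects no more than array-to-array spread, which may be technical.

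Several marker genes of the strain background did not match the genotype known for BY4742, which lacks LYS2 and has MET17. LYS2, an enzyme of lysine synthesis, read 11.56 and 11.59 in strain 2 and 11.51 and 11.56 in strain 3. MET17, the sulfhydrylase that takes sulfide into homocysteine, read 4.15 and 3.83 in strain 2 and 4.03 and 3.91 in strain 3, within the background of the arrays. URA3 also lay at background, at 3.08 to 3.34, and here the data match BY4742, which lacks that gene. Of 6 measured auxotrophy markers, 2 lay at background on all 4 arrays. The levels of the markers LEU2 and HIS3 are not given here. BY4742 is a MATα strain. MFA1, an a-factor gene, read 10.25 to 10.37 in both strains. MF(ALPHA)1, an alpha-factor gene, read 5.23 and 5.37 in strain 2 and 5.50 and 5.61 in strain 3. The means of the whole lists lay the other way. The mean of 7 a-specific genes was 7.68 and 7.68 in strain 2 and 7.82 and 7.85 in strain 3. That of 7 alpha-specific and silent mating locus genes was 8.05 and 8.05, and 8.08 and 8.11. Against the parental arrays, the a-specific median was -2.04 in strain 2 and -2.01 in strain 3, and the alpha-specific median 0.36 and 0.28. None of the 5 genes with levels given here passed the test between strains 3 and 2 in the fit over all 8 arrays. URA3 (adjusted p = 0.0255) and MF(ALPHA)1 (adjusted p = 0.0229) did without the parental arrays. The strains are therefore called by their titles here, and BY4742 is given only as the name in the labels.

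Budding yeast takes up glucose by facilitated diffusion through a family of hexose transporters (HXT) that differ in affinity. Their genes, and those of much of central carbon metabolism, are switched by how much glucose the cell senses, through the Rgt2 and Snf3 sensors, the Snf1 kinase and the Mig repressors. Glucose also acts through protein kinase A and TOR on the genes of ribosome assembly and ribosomal proteins, which are abundant in fast growth, while respiratory, reserve carbohydrate and stress genes are typically more abundant when growth slows.

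Strains 3 and 2 differed in many genes, mostly by small amounts. In limma, 1744 of the 5449 genes (32%) passed a Benjamini-Hochberg adjusted p under 0.05, which is what a call means here. In strain 3, 953 (17.5%) were higher and 791 (14.5%) were lower. Most differences were small: 1676 of the called genes differed by less than 1.5-fold, and 1099 by less than 1.2-fold. At 1.5-fold or more, 16 genes were higher (0.294% of all tested) and 52 lower (0.954%). At 2-fold or more, 4 were higher and 9 lower (0.239% in both directions together). The difference had a median of 0.02 over all genes, and 90% of genes lay between -0.35 and 0.27 on the log2 scale. The count of called genes depended on every array: it lay between 760 and 825 when any 1 of the 4 arrays was left out, with 325 to 387 higher and 426 to 452 lower, in fits that assume the lone array of a strain to vary like the other groups. The counts at 1.5-fold or more moved little in the same fits and in the other settings, between 12 and 20 higher and between 42 and 55 lower.

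The arrays of the pair were close to each other. Across genes, the arrays of strain 2 correlated at 0.9994, those of strain 3 at 0.9993, and arrays of different strains at 0.9957 to 0.9958. In 76.1% of all genes, the 2 arrays of one strain lay on the same side of both arrays of the other. Among them were all 953 genes called higher and all 791 called lower. An exact permutation test of a single gene over 2 against 2 arrays cannot go below p = 0.333, so calls rest on the spread pooled over genes and groups. In the RNA quality controls, strain 3 had the larger excess of 3′ over 5′ signal for 6 of 7 transcripts, by a median of 0.03 (log2, range -0.04 to 0.17), and its part in the results was not tested. In RNA from a whole culture, fewer cells of a kind and less RNA per cell cannot be told apart. Set against strain 1, with which both comparisons share arrays, strain 3 had 3132 called genes (57.5%) with 110 at 1.5-fold or more, and strain 2 had 2873 (52.7%) with 113.

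**Figure D1:**
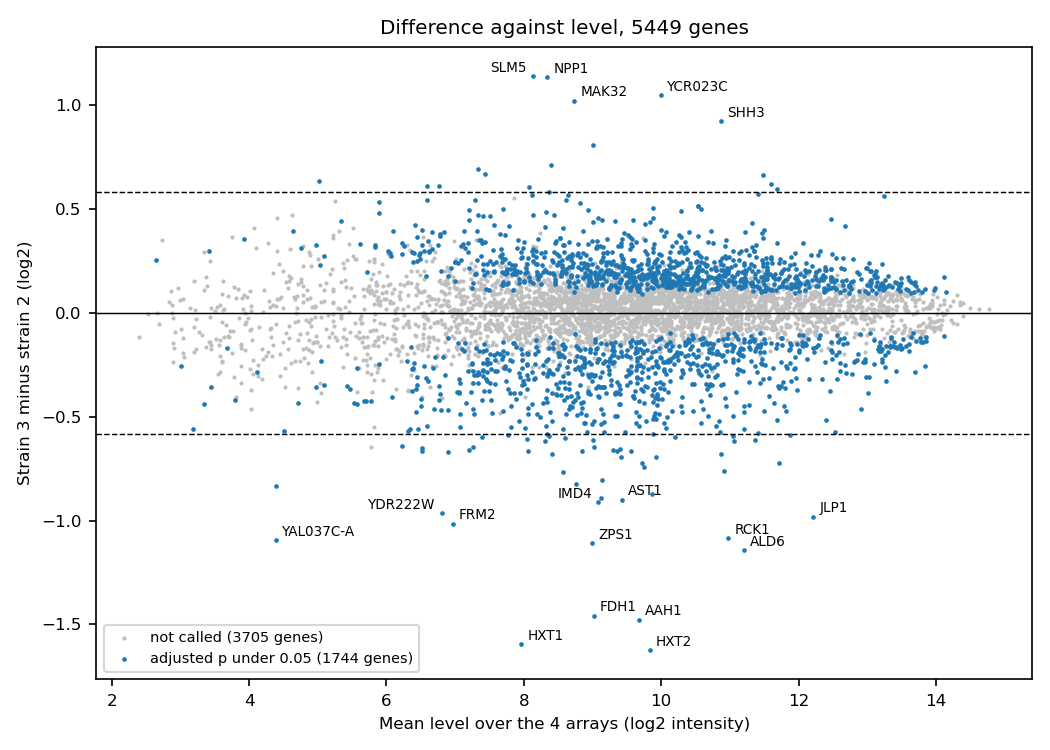
The difference between strain 3 and strain 2 (log2, y axis) against the mean level over the 4 arrays (log2 intensity, x axis) for 5449 genes; blue points are the 1744 called genes, grey points the rest, and dashed lines mark 1.5-fold. HXT2, HXT1, AAH1 and FDH1 lie lowest, between -1.46 and -1.62, and SLM5 and NPP1 highest, at 1.14.

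The hexose transporter genes held the pair of genes with the largest differences. HXT2, a transporter of high affinity, read 10.62 and 10.67 in strain 2 and 9.02 and 9.02 in strain 3. HXT1, the low-affinity transporter typical of high glucose, read 8.76 and 8.76 in strain 2 and 7.25 and 7.09 in strain 3. In both genes the arrays of the strains lay far apart. HXT2 was 3.08-fold lower in strain 3 (log2 difference -1.62 ± 0.19 SE, adjusted p = 0.00177) and HXT1 3.02-fold lower (-1.60 ± 0.12, adjusted p = 0.000495). HXT3, another low-affinity transporter, was lower by a smaller step, from 12.66 and 12.64 to 12.27 and 12.28 (-0.38 ± 0.03, adjusted p = 0.00047). HXT5, which is known for expression at slow growth, was higher in strain 3, from 12.16 and 12.18 to 12.45 and 12.48 (0.30 ± 0.04, adjusted p = 0.00442).

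The other 11 measured transporters of the list were not called. HXT4, of intermediate affinity, differed by -0.09 with a 95% interval of -0.21 to 0.03. HXT7, of high affinity and nearly identical to HXT6, which had no value of its own here, differed by 0.05, with an interval of -0.03 to 0.13. HXT9 differed by -0.08, HXT17 by 0.06 and the galactose permease GAL2 by 0.04. HXT11 differed by -0.40 (adjusted p = 0.0874) and HXT13 by 0.47 (adjusted p = 0.318). HXT17 and HXT13 each had a further probe set, whose mean level over the 4 arrays lay below background. When the parental arrays were left out of the fit, HXT11, HXT13 and HXT14 were called as well (adjusted p = 0.0267, 0.0412 and 0.0479), which made 2 of the list higher and 5 lower. HXT13 read 4.40 and 4.38 in strain 2 and 5.01 and 4.71 in strain 3, close to background. HXT8, HXT10, HXT14 and HXT15 lay at background on all 4 arrays, so the size of their differences has no meaning, although HXT14 and HXT15 were called in a fit of these 4 arrays alone (adjusted p = 0.0477 and 0.042). In the fit over 8 arrays, 1 of the 15 measured genes was therefore higher and 3 lower, against 17.5% and 14.5% of all genes.

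**Figure D2:**
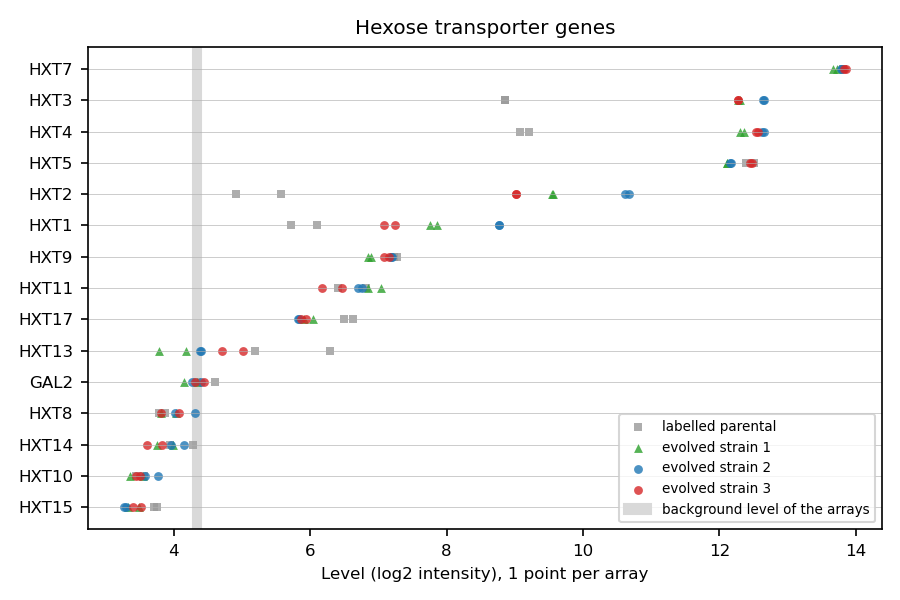
Levels of 15 hexose transporter genes (log2 intensity, x axis) on each of the 8 arrays, 1 point per array and 1 colour per strain; the grey band spans the background levels of the arrays. In HXT2 and HXT1 the strain 2 arrays lie above those of strain 1, strain 3 and the parental strain, and in HXT7 the arrays of strains 2 and 3 lie within 13.79 to 13.85.

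Among 34 genes of glucose sensing and repression, 9 were higher and 4 lower in strain 3, with a median difference of 0.09. That is 26.5% higher and 11.8% lower, against 17.5% and 14.5% of all genes. When any 1 of the 4 arrays was left out, 3 to 4 were higher and 1 to 3 lower. MIG3, a zinc-finger repressor related to Mig1, read 9.15 and 9.16 in strain 2 and 8.67 and 8.65 in strain 3 (-0.49 ± 0.03, adjusted p = 0.000189). MIG2, its relative in glucose repression, read 6.82 and 6.87 in strain 2 and 6.11 and 6.27 in strain 3 (-0.65 ± 0.13, adjusted p = 0.0112). The arrays of MIG2 did not overlap, but its adjusted p lay between 0.0567 and 0.0716 without strain 2 replicate 1, strain 2 replicate 2 or strain 3 replicate 1. YCK1, a casein kinase of the Rgt2 and Snf3 sensing pathway, was higher in strain 3, from 10.51 and 10.51 to 10.85 and 10.86 (0.34 ± 0.03, adjusted p = 0.00106).

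In glycolysis, 2 of 18 genes were higher and 3 lower, and the median difference was -0.01. These shares, 11.1% and 16.7%, were near or below the 17.5% and 14.5% of all genes. With 1 of the 4 arrays left out, 1 was higher and 2 to 3 lower. ENO2, the glucose-induced enolase, read 12.05 and 12.09 in strain 2 and 11.36 and 11.34 in strain 3, a 1.65-fold difference (-0.72 ± 0.07, adjusted p = 0.000937). PYK2, the minor pyruvate kinase, was lower by 0.33 on the log2 scale (-0.33 ± 0.04, adjusted p = 0.00182). PFK26, which makes the activator fructose 2,6-bisphosphate, was higher in strain 3, from 10.23 and 10.32 to 10.82 and 10.76 (0.51 ± 0.04, adjusted p = 0.000599). Its isozyme gene PFK27 differed the other way (-0.42 ± 0.09, adjusted p = 0.0157), and was not called without strain 2 replicate 1 or without strain 2 replicate 2 (adjusted p = 0.0529 and 0.093).

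Genes around ethanol, acetate and formate held several of the largest falls. ALD6, the cytosolic acetaldehyde dehydrogenase, read 11.76 and 11.79 in strain 2 and 10.67 and 10.58 in strain 3, a 2.21-fold difference (-1.14 ± 0.05, adjusted p = 9.44e-05). ADH6, an NADPH-dependent alcohol dehydrogenase, read 9.15 and 9.18 in strain 2 and 8.34 and 8.35 in strain 3 (-0.82 ± 0.04, adjusted p = 0.000111). Of the 16 genes of ethanol and acetate metabolism, 6 (37.5%) were lower and 1 (6.25%) higher, against 14.5% and 17.5% of all genes, although the median difference was -0.01. With 1 array left out, 4 to 6 were lower and 0 to 1 higher. ADY2, an acetate permease, read 10.11 and 10.14 in strain 2 and 9.39 and 9.38 in strain 3 (-0.74 ± 0.03, adjusted p = 9.44e-05). It belonged to a list of gluconeogenesis and glyoxylate genes in which 7 of 16 (43.8%) were lower and 1 higher, with MLS1, malate synthase, at -0.50. FDH1, formate dehydrogenase, read 9.74 and 9.75 in strain 2 and 8.32 and 8.25 in strain 3, a 2.75-fold difference (-1.46 ± 0.04, adjusted p = 4.35e-05). In the one-carbon list to which FDH1 belongs, 3 of 17 genes (17.6%) were lower and 2 (11.8%) higher, near the shares of all genes, and MIS1, the mitochondrial C1-tetrahydrofolate synthase, was at -0.58. Without 1 of the 4 arrays, 2 were lower and 0 to 1 higher. In the pentose phosphate pathway, RKI1, ribose-5-phosphate isomerase, was at -0.60, SOL3, a 6-phosphogluconolactonase, at -0.50 and GND2, the minor 6-phosphogluconate dehydrogenase, at 0.36. The whole pathway had 4 of 13 genes higher and 4 lower, 30.8% each way, and without 1 of the 4 arrays 1 to 2 higher and 2 lower.

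Most called genes of nucleotide metabolism were lower in strain 3. AAH1, adenine deaminase, which turns adenine into hypoxanthine and is known to be shut down as growth stops, read 10.41 and 10.42 in strain 2 and 8.96 and 8.92 in strain 3. The difference was 2.78-fold (-1.48 ± 0.09, adjusted p = 0.000277). IMD4, an IMP dehydrogenase at the entry to guanine nucleotides, read 9.54 and 9.54 in strain 2 and 8.58 and 8.68 in strain 3 (-0.91 ± 0.06, adjusted p = 0.00033). GUA1, the next enzyme of that branch, was at -0.56 and APT1, adenine phosphoribosyltransferase, at -0.52. Of 26 purine genes, 8 (30.8%) were lower and 3 (11.5%) higher, against 14.5% and 17.5% of all genes, and without 1 of the 4 arrays 6 were lower and 1 to 2 higher. Of 17 pyrimidine genes, 8 (47.1%) were lower and 1 (5.88%) higher, with a median of -0.16, and without 1 of the 4 arrays 6 were lower. URA7, CTP synthase, was at -0.68, the uracil permease FUR4 at -0.66 and the uridine permease FUI1 at -0.60. The members' mean level of the pyrimidine list was 9.73 and 9.75 in strain 2 and 9.54 and 9.54 in strain 3, while the mean over all genes tested was 9.53 on each of the 4 arrays.

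Most called genes of zinc and phosphate supply were also lower. Over all genes, 14.5% were lower and 17.5% higher. In the zinc list below these shares were 40% and 4%, and in the phosphate list 42.9% and 0%. ZPS1, a cell surface protein induced by low zinc, read 9.54 and 9.55 in strain 2 and 8.40 and 8.47 in strain 3, a 2.16-fold difference (-1.11 ± 0.04, adjusted p = 5.21e-05). ZRT1, the high-affinity zinc transporter, read 12.82 and 12.82 in strain 2 and 12.23 and 12.26 in strain 3 (-0.58 ± 0.03, adjusted p = 0.000145). ZAP1, the activator of the zinc regulon, was at -0.43 and NRG2, a repressor of glucose-repressed genes that the list also holds, at -0.67. Of 25 genes of the zinc regulon, 10 were lower and 1 higher, with a median of -0.11, and without 1 of the 4 arrays 6 to 8 were lower. Of 28 phosphate starvation genes, 12 were lower and 0 higher, with a median of -0.12, and without 1 of the 4 arrays 7 to 8 were lower. PHM6, a phosphate-regulated gene of unknown function, read 10.08 and 10.09 in strain 2 and 9.35 and 9.38 in strain 3 (-0.72 ± 0.03, adjusted p = 0.000111). PHO90, a low-affinity phosphate transporter, was at -0.42.

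Sulfur genes held large differences in both directions. JLP1, a dioxygenase that releases sulfite from sulfonates, read 12.69 and 12.72 in strain 2 and 11.75 and 11.70 in strain 3 (-0.98 ± 0.05, adjusted p = 0.000111). CYS3, cystathionine gamma-lyase, was at -0.58, and MHT1, which methylates homocysteine with S-methylmethionine, at -0.53. MET31, a zinc-finger activator of sulfur amino acid genes, was higher in strain 3, from 6.92 and 7.04 to 7.73 and 7.63 (0.70 ± 0.05, adjusted p = 0.00047). Of the 40 genes of sulfur assimilation and methionine, 13 (32.5%) were lower and 6 (15%) higher, against 14.5% and 17.5% of all genes, and the median difference was -0.04. Without 1 of the 4 arrays, 8 to 9 were lower and 4 higher.

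The remaining genes among the 15 with the largest falls belonged to other functions. RCK1, a protein kinase of the oxidative stress response, read 11.51 and 11.52 in strain 2 and 10.45 and 10.42 in strain 3, a 2.12-fold difference (-1.08 ± 0.04, adjusted p = 5.21e-05). It read 10.83 and 10.88 in strain 1 and 4.89 and 4.84 in the parental arrays, so that all evolved strains stood far above the parental level. FRM2, a nitroreductase-like protein, read 7.63 and 7.31 in strain 2 and 6.52 and 6.40 in strain 3 (-1.01 ± 0.10, adjusted p = 0.00114). AST1, which takes part in the delivery of the plasma membrane proton pump, was at -0.90, and YDR222W and YIR042C, both of unknown function, were at -0.96 and -0.89. YAL037C-A, a small open reading frame, read 4.99 and 4.89 in strain 2 and was at background in strain 3, where it was at least 1.56-fold lower (adjusted p = 0.000835).

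**Figure D3:**
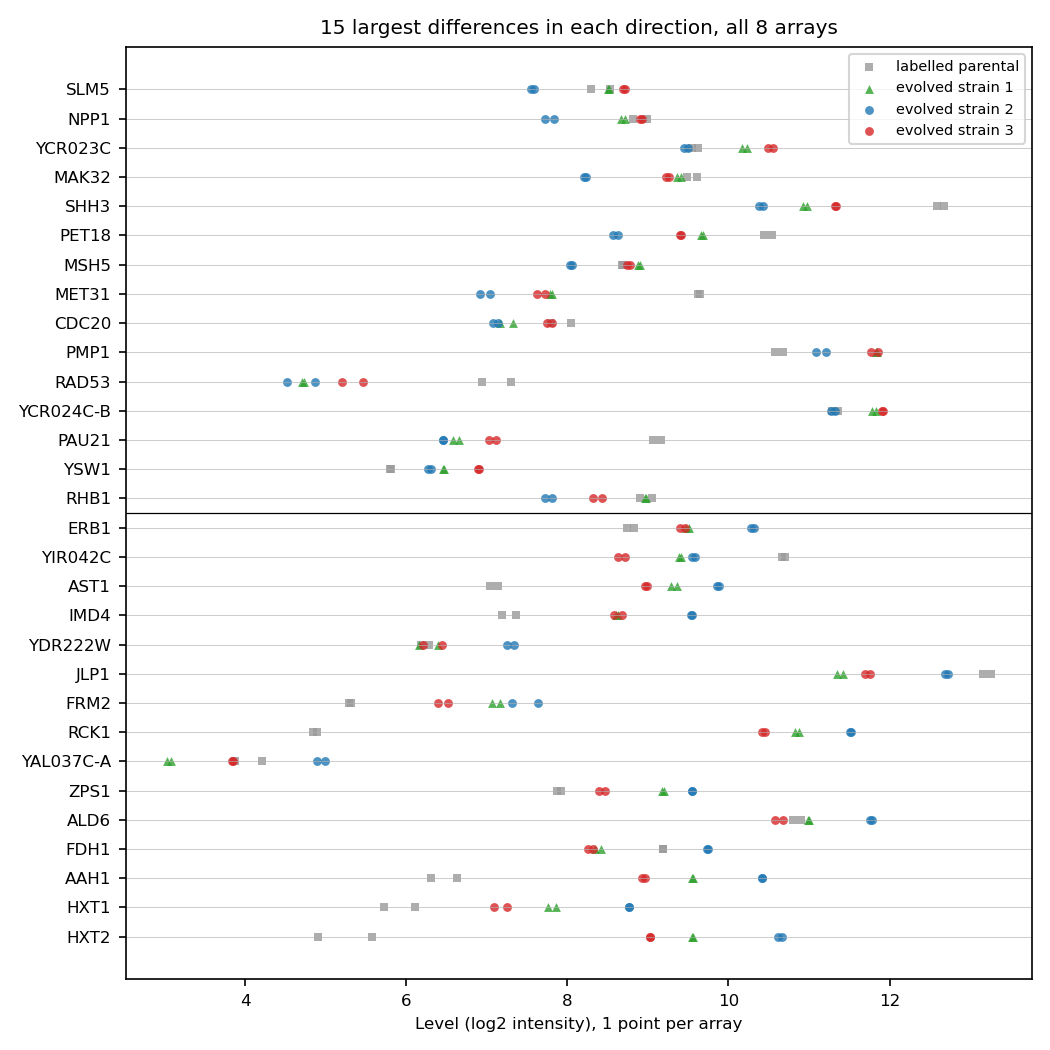
Levels (log2 intensity, x axis) of the 15 genes most raised (above the line) and the 15 most lowered (below it) in strain 3 relative to strain 2, 1 point per array for all 8 arrays. In SLM5, MAK32 and AAH1 the arrays of strain 1 lie nearer to strain 3 than to strain 2, and in RCK1 the parental arrays, at 4.84 and 4.89, lie far below all evolved strains.

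The broadest shared difference lay in ribosome assembly. Of 104 ribosome biogenesis genes, 80 (76.9%) were lower in strain 3 and 0 higher, against 14.5% and 17.5% of all genes. The median difference was -0.35, against 0.02 over all genes, and 100 of the 104 members lay below 0. The members' mean level was 9.10 and 9.12 in strain 2 and 8.79 and 8.78 in strain 3, so the arrays of the strains did not overlap. Without 1 of the 4 arrays, 61 to 64 members were called lower. ERB1, a factor of large subunit assembly, read 10.32 and 10.28 in strain 2 and 9.40 and 9.46 in strain 3, a 1.83-fold difference (-0.87 ± 0.04, adjusted p = 0.000111). NIP7, which acts in the assembly of the large subunit, was at -0.66, NSR1, a nucleolar protein of pre-rRNA processing, at -0.61 and DBP2, an RNA helicase, at -0.61. Against strain 1, which is shared by both comparisons, the list's median was -0.13 for strain 3 and 0.15 for strain 2.

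Cytosolic ribosomal protein genes were lower by less. For comparison, 14.5% of all genes were lower and 17.5% higher. Of 75 genes of the 60S subunit, 39 (52%) were lower and 0 higher, and of 53 genes of the 40S subunit, 29 (54.7%) were lower and 0 higher. Both lists had a median of -0.14, and 127 of the 128 genes lay below 0. The mean level of the 60S list was 13.26 and 13.26 in strain 2 and 13.09 and 13.10 in strain 3. The number called depended on every array: without 1 of the 4, 22 to 23 genes of the 60S list and 11 to 15 of the 40S list were called lower. RPS22A, a 40S protein, read 12.62 and 12.70 in strain 2 and 12.13 and 12.17 in strain 3 (-0.51 ± 0.05, adjusted p = 0.000937). RPL33B, a 60S protein, read 12.07 and 12.04 in strain 2 and 11.59 and 11.58 in strain 3 (-0.47 ± 0.04, adjusted p = 0.000937). Many of these genes have a near-identical copy whose cRNA can bind the same probes, so the values of a pair are uncertain as to which copy they measure. Against strain 1, the medians for strain 3 were -0.13 (60S) and -0.11 (40S), and for strain 2 they were 0.01 in both lists.

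The polymerases that transcribe ribosomal and transfer RNA genes and the translation factors also held more lower than higher calls. The polymerase list had 39.3% lower and 3.57% higher, and the translation factors 40% and 2.86%. All genes together had 14.5% lower and 17.5% higher. Of 28 genes of RNA polymerases I and III, 11 were lower and 1 higher, with a median of -0.11, and without 1 of the 4 arrays 5 to 8 were lower. RPA34, a subunit of polymerase I, read 8.64 and 8.60 in strain 2 and 8.04 and 7.97 in strain 3 (-0.62 ± 0.05, adjusted p = 0.000671). RPA43, another subunit of that enzyme, and RPC40, which polymerases I and III share, were both at -0.49. RRN3, the initiation factor of polymerase I, was the gene of the list that was higher in strain 3, from 8.34 and 8.33 to 8.90 and 8.87 (0.55 ± 0.04, adjusted p = 0.000371). Of 35 translation factor genes, 14 were lower and 1 higher, with a median of -0.08, and without 1 of the 4 arrays 4 to 6 were lower. TEF4, an elongation factor 1B gamma, was at -0.46.

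Genes of mitochondrial respiration were higher in strain 3 by small amounts. Of 38 nuclear genes of the respiratory chain, 21 (55.3%) were higher and 0 lower, against 17.5% and 14.5% of all genes, and all 38 lay above 0, between 0.03 and 0.23, with a median of 0.12. The mean level of the list was 12.94 and 12.94 in strain 2 and 13.07 and 13.06 in strain 3. COR1 and QCR6, both of the cytochrome bc1 complex, were at 0.23 and 0.22, and COX4, a subunit of cytochrome c oxidase, at 0.22. These differences were close to the limit of the test: without 1 of the 4 arrays, 6 to 8 genes of the list were called higher. Against strain 1, the list's median was -0.04 for strain 3 and -0.15 for strain 2.

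Of 17 genes of the tricarboxylic acid cycle, 10 (58.8%) were higher and 1 (5.88%) lower (median difference 0.17). The shares of all genes were 17.5% and 14.5%. KGD1 and KGD2, subunits of the 2-oxoglutarate dehydrogenase complex, were at 0.34 and 0.21. Without 1 of the 4 arrays, 5 to 7 genes of the list were higher. Succinate dehydrogenase and its relatives and assembly factors, 11 genes, held 8 higher and 0 lower (median difference 0.20), and without 1 of the 4 arrays 5 to 6 were higher. The 8 higher genes were 72.7% of the list. It shares SDH1, SDH2, SDH3 and SDH4 with the list of the tricarboxylic acid cycle, so the counts of these lists overlap. SHH3, a mitochondrial protein similar to the membrane anchor Sdh3, read 10.42 and 10.38 in strain 2 and 11.33 and 11.32 in strain 3, a 1.90-fold difference (0.92 ± 0.04, adjusted p = 9.44e-05). SDH6, an assembly factor of the enzyme, was at 0.39, and SDH2, its iron-sulfur subunit, at 0.27. In strain 1, SHH3 lay between the pair, at 10.93 and 10.98.

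The mitochondrial ribosome had 25 of 68 genes higher (36.8%) and 0 lower (median difference 0.11), but without 1 of the 4 arrays only 4 to 10 were higher. RSM22, a factor of its small subunit, was at 0.39 and MRPL15, a protein of its large subunit, at 0.32. Over all genes, 17.5% were higher and 14.5% lower. The cytosolic and the mitochondrial ribosome lists thus lay on opposite sides of the median of all genes.

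Stress, turnover and storage genes were more often called higher than lower, by a margin that varied between lists. Among all genes, 17.5% were higher and 14.5% lower. In the Hsp90 list below these shares were 41.7% and 4.17%, and in the Hsp70 list 42.3% and 19.2%. Of 42 marker genes of the environmental stress response, 20 (47.6%) were higher and 1 lower (median difference 0.11), and without 1 of the 4 arrays 6 to 14 were higher. HBT1, a protein of cell shape in mating that belongs to this list, read 10.33 and 10.32 in strain 2 and 10.86 and 10.79 in strain 3 (0.50 ± 0.04, adjusted p = 0.000455). PAI3, the inhibitor of vacuolar proteinase A, was at 0.43 and SIP18, a hydrophilin of desiccation, at 0.42. PHM7 was the member that was lower, at -0.37. Of 24 genes of Hsp90, the disaggregase and small heat shock proteins, 10 were higher and 1 lower, and without 1 of the 4 arrays 5 to 7 were higher. The largest rise of this list, 0.56, was that of HSP30, which also lies in the run on chromosome III described below. HSP82, the inducible Hsp90, read 11.90 and 11.89 in strain 2 and 12.23 and 12.24 in strain 3 (0.34 ± 0.03, adjusted p = 0.00115). Among 26 genes of Hsp70 and Hsp40 chaperones, 11 were higher and 5 lower (median difference 0.01), and without 1 of the 4 arrays 5 to 6 were higher and 1 to 2 lower.

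Of 36 genes of vacuolar proteases and autophagy, 17 were higher and 1 lower (median difference 0.13), and 9 to 10 were higher without 1 of the 4 arrays. ATG14, a subunit of the autophagy phosphatidylinositol 3-kinase, read 9.20 and 9.34 in strain 2 and 9.65 and 9.66 in strain 3 (0.38 ± 0.05, adjusted p = 0.0024). Of 36 proteasome genes, 13 were higher and 0 lower (median difference 0.10), and without 1 of the 4 arrays 2 to 4 were higher. BLM10, an activator of the proteasome, was at 0.37. Of 24 genes of trehalose and glycogen, 10 were higher and 1 lower (median difference 0.09), and without 1 of the 4 arrays 2 to 3 were higher. GLG2, a primer protein of glycogen synthesis, was at 0.39 and ATH1, the acid trehalase, at 0.34. These lists had 47.2%, 36.1% and 41.7% higher, in that order, against 17.5% of all genes. Their shares lower were 2.78%, 0% and 4.17%, against 14.5%. The calls over all genes also fell in the fits without 1 array.

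**Figure D4:**
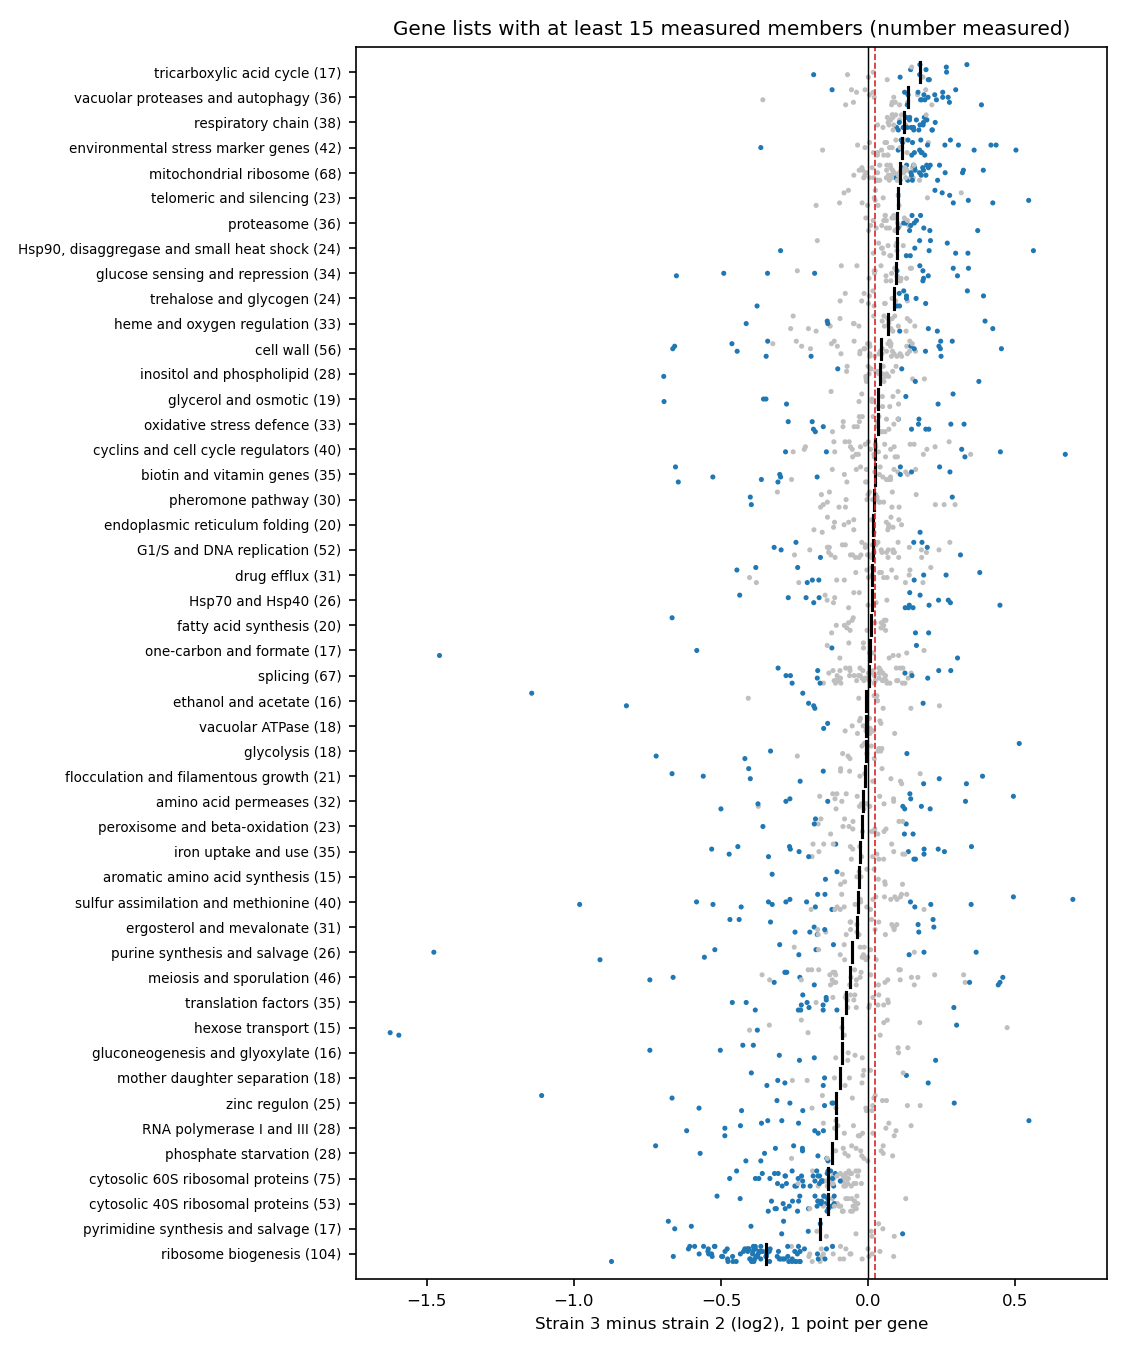
The difference between strain 3 and strain 2 (log2, x axis) for each measured member of the gene lists with at least 15 measured genes, 1 point per gene; blue points are called genes, grey points are not, black marks are list medians and the red dashed line is the median of all genes, 0.02. Ribosome biogenesis lies lowest, with a median of -0.35, and the tricarboxylic acid cycle highest, at 0.17.

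A stretch of neighbouring genes on chromosome III stood out among the genes that were higher in strain 3. It was picked out after its values were seen, as the longest run of consecutive measured genes called in the same direction. The 11 measured genes from MAK32 to RHB1 were all higher, by 0.56 to 1.14 with a median of 0.67, and 9 of the 16 genes that were 1.5-fold or more higher lay in it. The next longest run held 6 genes. SLM5, the mitochondrial asparaginyl-tRNA synthetase, read 7.58 and 7.54 in strain 2 and 8.71 and 8.70 in strain 3, a 2.21-fold difference (1.14 ± 0.07, adjusted p = 0.000277). NPP1, a nucleotide pyrophosphatase and phosphodiesterase, read 7.72 and 7.84 in strain 2 and 8.92 and 8.90 in strain 3 (1.14 ± 0.07, adjusted p = 0.000212). YCR023C, a membrane protein of unknown function, read 9.45 and 9.50 in strain 2 and 10.55 and 10.49 in strain 3 (1.05 ± 0.04, adjusted p = 9.44e-05).

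The other genes of the run were MAK32, which is needed to maintain the killer virus, at 1.02, PET18 at 0.81, and MAK31, a subunit of an N-terminal acetyltransferase, at 0.60. HTL1, a component of the RSC chromatin remodeller, was at 0.57 and HSP30, a plasma membrane protein induced by stress, at 0.56. YCR024C-B, a small open reading frame, was at 0.62, PMP1, a regulatory subunit of the plasma membrane proton pump, at 0.67, and RHB1, a small GTPase related to Rheb, at 0.61. The flanking measured genes lay on the other side of 0: SRD1, a protein of pre-rRNA processing, at -0.47 (adjusted p = 0.049) and FEN2, a pantothenate transporter, at -0.18 (adjusted p = 0.124). The other 137 measured genes of chromosome III had a median of 0.02, and the chromosome medians over the genome lay between -0.01 and 0.04.

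Strain 1 was set beside both strains in this run. Against strain 1, the strain 2 levels of the 11 genes had a median of -0.91 (range -1.48 to 0.01), and 10 of them were called lower. The strain 3 levels had a median of -0.02 against strain 1 (range -0.92 to 0.57), with 3 called higher and 5 lower. Against the parental arrays the medians were -1.13 for strain 2 and 0.01 for strain 3. The single genes spread widely around them, from PET18 (-1.89 in strain 2, -1.09 in strain 3) to PMP1 (0.52 and 1.18). HSP30 was the gene in which strain 2 was not below strain 1, at 12.96 and 12.95 in strain 1 and 12.96 and 12.97 in strain 2. Both strains lay below the 13.52 and 13.53 of strain 3. These comparisons share arrays and are given side by side.

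**Figure D5:**
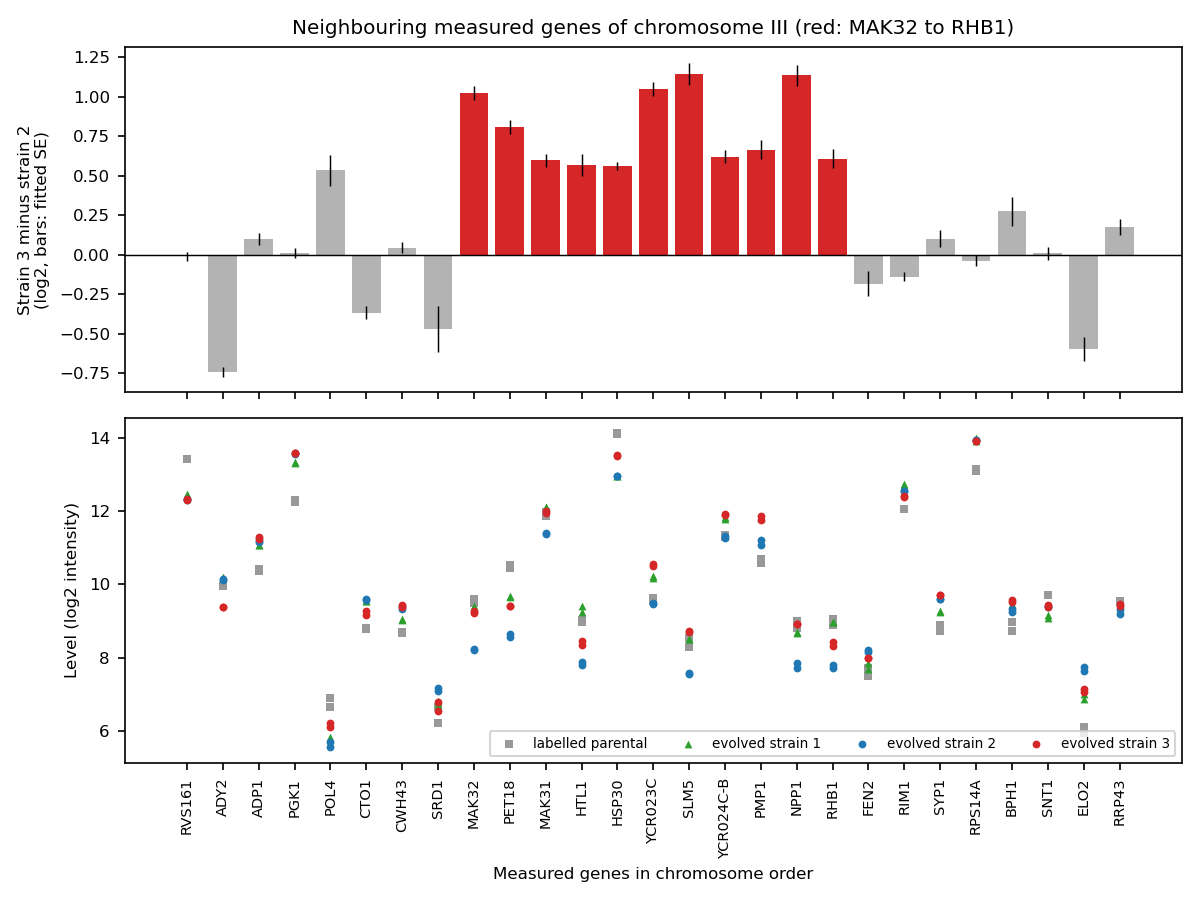
Measured genes in chromosome order around the run from MAK32 to RHB1 on chromosome III. The upper panel gives the difference between strain 3 and strain 2 (log2, error bars are the fitted SE; red, the 11 genes of the run, 0.56 to 1.14) and the lower panel the level of each gene on each of the 8 arrays (log2 intensity), where strain 2 lies below strains 1 and 3 in most genes of the run.

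Outside chromosome III, the genes most raised in strain 3 were scattered in function. SHH3 and MET31 are described above. MSH5, a MutS relative that acts in meiotic crossing over, read 8.06 and 8.03 in strain 2 and 8.74 and 8.77 in strain 3 (0.71 ± 0.03, adjusted p = 9.69e-05). CDC20, the activator of the anaphase-promoting complex, read 7.07 and 7.14 in strain 2 and 7.74 and 7.81 in strain 3 (0.67 ± 0.09, adjusted p = 0.003). Around CDC20, 4 of 40 cyclins and cell cycle regulators were higher and 2 lower, below the shares of 17.5% and 14.5% over all genes, and without 1 of the 4 arrays 2 to 3 were higher and 0 lower. PAU21, a seripauperin, and YSW1, a sporulation gene, were both at 0.61. RAD53, the checkpoint kinase, read 4.52 and 4.86 in strain 2 and 5.21 and 5.46 in strain 3, close to background (0.64 ± 0.16, adjusted p = 0.0227). It was not called without strain 2 replicate 1, strain 3 replicate 1 or strain 3 replicate 2, where its adjusted p lay between 0.0528 and 0.122.

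Mating genes differed by less than 1.5-fold between the pair. The a-specific list had 42.9% higher and 0% lower, and the alpha-specific list 0% and 14.3%. The shares of all genes were 17.5% and 14.5%. Of 7 a-specific genes, 3 were called higher in strain 3, and each lost its call in some of the fits with 1 array left out, which kept 0 to 2 of them. AGA2, a subunit of a-agglutinin, read 7.13 and 7.22 in strain 2 and 7.62 and 7.66 in strain 3 (0.47 ± 0.09, adjusted p = 0.0108). STE2, the alpha-factor receptor, differed by 0.37 and STE6, the a-factor exporter, by 0.15. The a-factor genes MFA1 and MFA2 differed by 0.03 and 0.15 and were not called. Of 7 alpha-specific and silent mating locus genes, STE3, the a-factor receptor, was called, at -0.24, and MF(ALPHA)1, MF(ALPHA)2, SAG1 and HMLALPHA1 were not, at 0.26, 0.24, 0.11 and -0.21. Without the parental arrays, MFA2 (adjusted p = 0.0479), MF(ALPHA)1 (0.0229), MF(ALPHA)2 (0.035) and SAG1 (0.0295) were called higher in strain 3 as well.

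Strain 1 was set beside the 68 genes that differed by 1.5-fold or more between strains 3 and 2. Its mean lay between the means of the pair in 49 genes, beyond strain 3 in 18 and beyond strain 2 in 1. It was nearer to strain 3 in 49 genes and nearer to strain 2 in 19, in similar shares for the genes that were higher (12 of 16) and lower (37 of 52) in strain 3. In IMD4, strain 1 read 8.61 and 8.63, level with the 8.58 and 8.68 of strain 3, and in FDH1 it read 8.42 and 8.34 beside the 8.32 and 8.25 of strain 3. In HXT2, strain 1 read 9.56 and 9.55, between the pair, and in YIR042C it read 9.39 and 9.41, near the 9.55 and 9.58 of strain 2. The parental mean lay between the pair in 13 of these genes, beyond strain 3 in 42 and beyond strain 2 in 13. In HXT2 the parental arrays read 5.57 and 4.90 and in AAH1 6.63 and 6.30, so that strain 3 lay on the parental side of strain 2 but well above the parental level.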

How the data were processed

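Levels are the linear intensities deposited by the authors, 1 per probe set and array, made with RMA per the submitters' processing notes, and log2 was taken here. The software version and the chip definition used are not given in the sources used here. Probe sets listed with 1 S. cerevisiae gene were kept, and of several for a gene the brightest was used, without regard to the strains. Background on an array was the 95th percentile of the 1746 probe sets listed for another species. A gene at background on both arrays of a strain has only a bound there, and its fold is given as at least the value against background. limma 3.58.1 in R 4.3.3 was fitted to all 8 arrays with 1 coefficient per group and without a replicate block, strain 3 was set against strain 2, and p-values were adjusted over all 5449 genes. The fit had 4 residual and 2.52 prior degrees of freedom, and was tested on simulated data. The number of arrays limits the precision. Errors are the fitted SE of a difference over 2 arrays against 2.

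Named genes are the 15 largest called differences each way, up to 4 called genes of each of 63 gene lists, all hexose transporters and the strain markers. Members, lists and tests were chosen with earlier results of these data known, so lists are described by counts and medians with no test. Gene order and names come from RefSeq's R64 table. Alternatives covered the arrays in the fit, each array left out, the block, normalization, the filter, the probe set rule, the prior, the pseudocount and the thresholds. Promoter and protein sequences were not used here.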

Additional observations from a re-analysis of the deposited data

How the results depend on the processing

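Leaving out 1 of the 4 arrays gave 760 to 825 called genes, 325 to 387 higher and 426 to 452 lower in strain 3. These fits have fewer arrays. An adjusted p under 0.01 gave 787 genes (351 higher, 436 lower), and a test against a minimum of 1.2-fold gave 112 (27 higher, 85 lower), including 28 of the 30 genes with the largest differences. Without the parental arrays, whose spread was wider, 2559 genes were called, 1431 higher and 1128 lower, among them all 1744 of the fit over 8 arrays, and the cause was not tested. Same-numbered arrays of strains 2 and 3 deviated together at a correlation of 0.031, and those of other pairs of groups at -0.12 to 0.025. Such values cannot show whether equal numbers mark a shared culture, day or batch. A replicate block gave 1550 genes (824 higher, 726 lower). Quantile normalization, centring, 16 added before log2, the robust and trended priors, the mean over probe sets, the filter on dim genes and a fit of the 4 arrays alone left the counts within 1.5 times. Among the 259 named genes, 0 of those called in the fit over 8 arrays changed direction in any setting run. Changes of sign in genes that were not called were not counted. Between 52 and 58 named genes lost their call without 1 array, and 8 under the block. Genes at background on all 4 arrays numbered 111, of which 10 were called, and levels there set only a bound.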

Other observations

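A second, shorter run of neighbours was called in 1 direction. On chromosome XII, the 6 consecutive measured genes from MHT1 to YCT1 were all lower in strain 3, the longest run after that on chromosome III. It was likewise picked out after its values were seen. It was little longer than the next runs, of 5 genes each on chromosomes VI and VIII, and 32% of all genes were called. MHT1 was at -0.53, MMP1, the S-methylmethionine permease, at -0.28, GTT2, a glutathione transferase, at -0.27, JLP1 at -0.98, YLL056C, a putative oxidoreductase, at -0.62, and YCT1, a cysteine transporter, at -0.34. In all 6 genes both arrays of strain 2 lay above those of strain 3. The same held in all 791 genes called lower, so it adds nothing to the calls. YLL056C read 11.38 and 11.34 in strain 2, 10.73 and 10.76 in strain 3, and 10.82 and 10.78 in strain 1. Of these genes, MMP1, YLL056C and YCT1 are named because of their place in the run.

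Among the other gene lists, some held large single differences around a median near 0. In the cell wall list, GAS1, a glucanosyltransferase, was at -0.66, ECM33, a GPI-anchored protein, at -0.66, CWP2, a mannoprotein, at -0.46 and PIR3, a covalently bound wall protein, at 0.45, while 9 of 56 genes were higher and 7 lower (median difference 0.04). GPP1, a glycerol-1-phosphatase, was at -0.69, INM1, an inositol monophosphatase, at -0.70, and ELO3, a fatty acid elongase, at -0.67. Their lists (glycerol and osmotic, inositol and phospholipid, fatty acid synthesis) had medians of 0.03, 0.04 and 0.01. In the vitamin list, PAN6, pantothenate synthase, was at -0.66, and SNZ3 and SNO3, of the pyridoxine family, were at -0.65 and -0.53. Few genes were called among 67 splicing factors (5 higher, 7 lower), 52 genes of G1/S and DNA replication (4 higher, 4 lower), 20 genes of endoplasmic reticulum folding (1 higher, 0 lower) and 18 subunits of the vacuolar ATPase (0 higher, 2 lower), below the 17.5% and 14.5% of all genes in each direction. Without 1 of the 4 arrays, 1 to 2 splicing genes were higher and 2 to 3 lower, and 0 to 2 replication genes were higher and 0 to 1 lower.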
